A study of Mus musculus with 288 samples.

Results

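Proteasome subunits were followed through the day in 12 mouse tissues. The members were all 39 genes with a symbol of Psma, Psmb, Psmc or Psmd and a number that a single-gene probe set of the array represented, among 19938 genes measured. Of these, 19 encode the core particle and 20 the regulatory cap, in each case with the tissue-specific subunits and chaperones that carry such symbols. RNA came from C57/BL6 mice: liver, kidney and lung, adrenal gland, brown and white adipose, heart, aorta and skeletal muscle, and from the brain hypothalamus, cerebellum and brainstem. All animals had lived for 1 week under 12 h of light and 12 h of darkness and were then kept in constant darkness, so no tissue had a control in light. Sampling ran at 2 h steps over CT18 to CT64 (CT, circadian time, is 0 when lights would have come on), which gave 24 arrays per tissue and 288 in all. RNA of 3 mice was combined for each array and each time point had 1 array, so the spread between mice was not measured, and the errors given describe the scatter of pools around a fitted curve. Neither the sex nor the age of the mice is given in the sources used here.

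The proteasome degrades proteins that carry ubiquitin. Its core is a stack of rings in which alpha subunits form the gate and beta subunits hold the proteolytic sites. The cap recognises ubiquitin, removes it, unfolds the substrate with a ring of ATPases and feeds it into the core. In immune cells, and in other cells exposed to interferon, the catalytic beta subunits are exchanged for the immunoproteasome subunits Psmb8, Psmb9 and Psmb10, which favour peptides for antigen presentation.

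A wave with a period of 24 h was fitted to the log2 intensities of each tissue, and genes that passed limma's moderated F test at an adjusted p of 0.05, taken over all 19938 genes, are called rhythmic. Kidney had 20 rhythmic members of 39 against 25.8% of all genes, liver 20 against 26.8% and lung 15 against 20.9%. These counts were 51.3%, 51.3% and 38.5% of the members. Adrenal gland had 6 rhythmic members (15.4%, all genes 5.89%), aorta 4 (10.3%, all genes 5.09%) and hypothalamus 2 (5.13%, all genes 1.8%). In the remaining tissues the share lay near or under that of all genes: brown adipose 7 (17.9% against 16.5%), heart 3 (7.69% against 8.64%), white adipose 2 (5.13% against 4.85%), brainstem 1 (2.56% against 4.78%) and cerebellum 1 (2.56% against 5.49%). Skeletal muscle had 0 rhythmic members by limma against 5.12% of all genes, with 2 at an unadjusted p under 0.05. The background share was higher when only genes above the tissue median intensity were tested. Then 23 of 36 members passed in kidney (47.3% of such genes), 22 of 37 in liver (51.7%) and 17 of 37 in lung (39.7%). Adrenal gland had 5 of 36 (13.7%), aorta 4 of 36 (12.6%) and hypothalamus 2 of 36 (4.51%), each near the share of such genes. Brown adipose had 8 of 37, under the share of such genes (32.2%). The called waves were shallow. The largest fitted peak-to-trough fold among the 81 calls was 1.35, the median was 1.14, and 13 calls exceeded 1.2. In total 34 members passed in at least 1 tissue (58.9% of all genes did) and 14 in at least 3 (18.1% of all genes). The 5 members called nowhere were the alpha subunit Psma2, the testis subunit Psma8, the thymus subunit Psmb11 and the assembly chaperones Psmd9 and Psmd10.

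**Figure D1:**
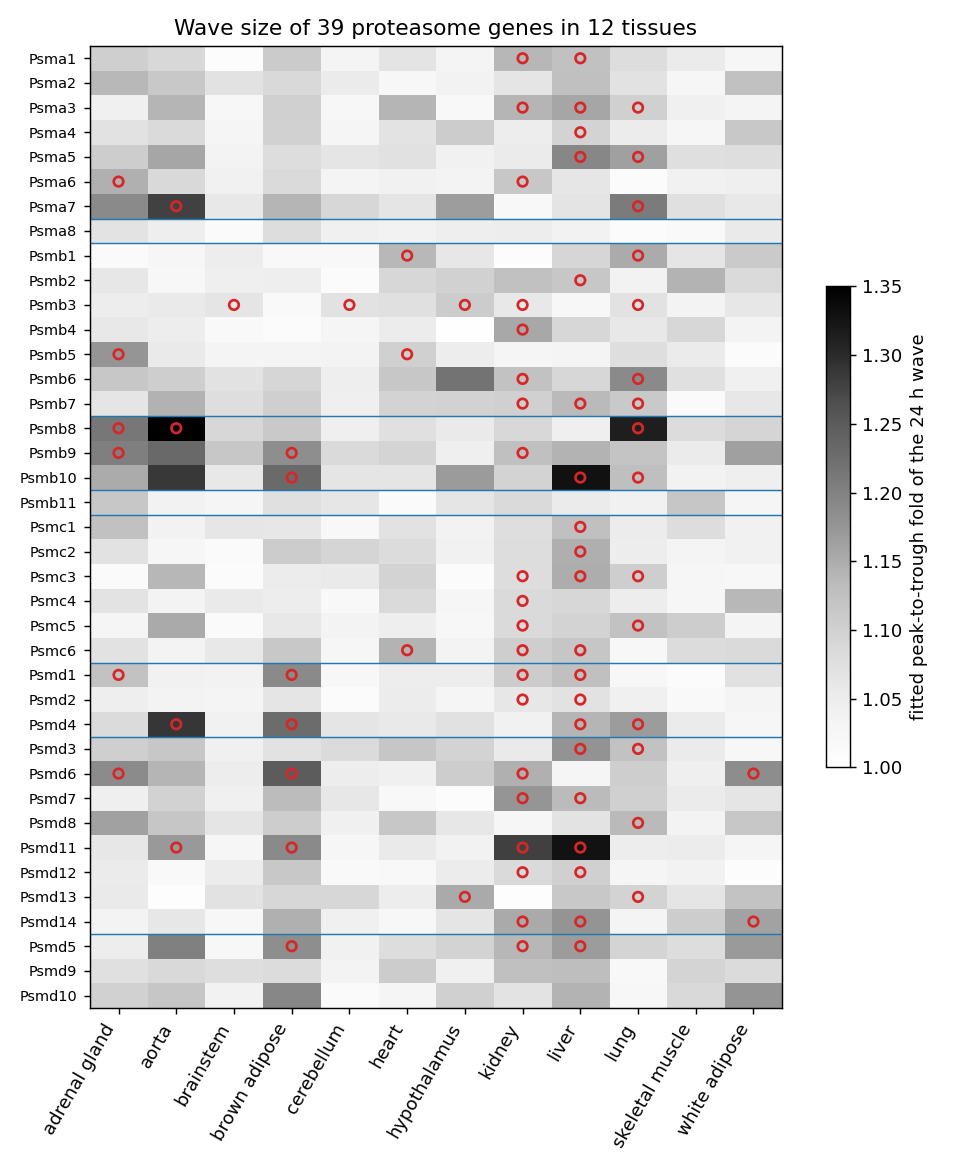
Fitted peak-to-trough fold of the 24 h wave for each of the 39 genes (rows) in each of the 12 tissues (columns), darker for larger folds, with rings on the pairs called rhythmic and lines between groups of subunits. Kidney, liver and lung hold 55 of the 81 rings, and the darkest ringed cells, with folds of 1.28 to 1.35, are Psmb8, Psmd4 and Psma7 in aorta, Psmb8 in lung, Psmb10 in liver and Psmd11 in liver and kidney.

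The labelled tissues carried their own markers: hepatocyte markers had a mean log2 intensity of 13.62 in liver, kidney tubule markers 12.4 in kidney, lung epithelium markers 12.31 in lung and skeletal muscle markers 13.56 in skeletal muscle. RNA of neighbouring tissue varied between arrays in some organs. Skeletal muscle markers in brown adipose ran from a mean of 6.65 at CT36 to 11.65 at CT44 and 12 of 12 were rhythmic there, and hepatocyte markers in adrenal gland ran from 6.14 at CT58 to 12.61 at CT50 with 0 of 8 rhythmic. The array least like the rest of its tissue was white adipose at CT64 (median correlation 0.9597). In bulk tissue, fewer cells of a type and less RNA per cell cannot be told apart.

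Promoter sequences of 32 of the 39 members were found in the RefSeq table of build GRCm38.p6, each running from 250 bases before to 50 after the annotated start. Shown are the lid genes Psmd11 and Psmd14, which had the lowest adjusted p of the cap in both kidney and liver, the core gene Psmb6, whose wave differed between kidney and lung, and the immunoproteasome gene Psmb10, which had the largest wave of the liver core. Capitals mark matches, on either strand, to CCAAT in Psmd14, to TGACNNNGC (the antioxidant response element) in Psmb6 and to CACGTG (the E-box, bound by the clock activators) in Psmb10. Psmd11 held no match to any of the 6 motifs searched.
Psmd11 (chr11:80428365-80428664, plus strand): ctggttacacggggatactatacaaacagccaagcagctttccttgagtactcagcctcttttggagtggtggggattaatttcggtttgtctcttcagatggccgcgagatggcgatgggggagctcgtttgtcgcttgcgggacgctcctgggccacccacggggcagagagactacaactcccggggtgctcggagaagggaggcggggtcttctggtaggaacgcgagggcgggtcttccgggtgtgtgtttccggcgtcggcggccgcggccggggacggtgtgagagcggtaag
Psmd14 (chr2:61711444-61711743, plus strand): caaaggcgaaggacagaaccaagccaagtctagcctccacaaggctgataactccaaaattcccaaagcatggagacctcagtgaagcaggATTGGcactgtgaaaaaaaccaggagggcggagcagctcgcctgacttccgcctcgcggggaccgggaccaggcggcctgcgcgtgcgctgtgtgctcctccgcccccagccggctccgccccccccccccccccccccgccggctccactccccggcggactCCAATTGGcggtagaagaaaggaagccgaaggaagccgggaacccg
Psmb6 (chr11:70525107-70525406, plus strand): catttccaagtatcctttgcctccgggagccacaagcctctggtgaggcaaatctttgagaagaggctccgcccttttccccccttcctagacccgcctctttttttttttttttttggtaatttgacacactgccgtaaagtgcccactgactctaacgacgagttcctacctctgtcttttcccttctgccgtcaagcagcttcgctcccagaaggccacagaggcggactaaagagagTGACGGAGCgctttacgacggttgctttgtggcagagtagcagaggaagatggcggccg
Psmb10 (chr8:105938343-105938642, minus strand): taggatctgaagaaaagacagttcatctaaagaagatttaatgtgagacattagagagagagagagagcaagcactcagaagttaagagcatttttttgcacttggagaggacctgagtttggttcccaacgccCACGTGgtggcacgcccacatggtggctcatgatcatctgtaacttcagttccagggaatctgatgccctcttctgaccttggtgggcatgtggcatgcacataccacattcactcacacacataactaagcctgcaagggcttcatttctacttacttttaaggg

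The share of member promoters with each motif lay near that of all 27025 promoters of the same length for the commoner motifs. TGACNNNGC, the element through which the proteasome's own transcription factor Nfe2l1 is known to act, was present in 5 of 32 members (15.6%, all promoters 14%), which were Psmb5, Psmb6, Psmc6, Psmd9 and Psmd12. CCAAT was present in 13 (40.6%, all promoters 41.1%) and CACGTG in 3 (9.38%, all promoters 8.09%), which were Psma4, Psmb10 and Psmd9. The interferon-stimulated response element was present in 3 (9.38%, all promoters 3.99%), which were Psmb3, Psmd4 and Psmd9. TTATGNAA, the D-box, and the heat shock element matched 0 members, against 3.99% and 0.662% of all promoters. Matches to different motifs overlapped in 0 member promoters. A match in these windows is a string of letters and was not tested as a binding site.

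The cap peaked in the late subjective night in kidney. All 12 rhythmic cap members of kidney peaked between CT18 and CT24, where 41.8% of all rhythmic kidney genes had their peak. Psmd11 (probe set 10379467, chromosome 11 from 80428615 to 80473248), a lid subunit that ties lid to core and base, had the lowest adjusted p of the family. Its intensity in kidney ran from 724.8 at CT58 through a median of 887.5 to 995.5 at CT22. All 12 arrays within 6 h of the fitted peak lay above the median and all 12 arrays away from it lay below. The groups thus did not overlap around that line. The peak was fitted to these same arrays, so such counts, here and below, describe the fit and are no separate support for it. The fitted fold was 1.28 (95% interval 1.22 to 1.34), with a peak at CT21.41 (SE 0.35 h, adjusted p = 1.55e-08), and fits to the separate days peaked at CT21.37 and CT21.45.

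Psmd14 (chromosome 2 from 61711694 to 61800376), the metalloprotease of the lid that cleaves ubiquitin chains from the substrate, followed close behind. Its kidney intensity ran from 1382 at CT60 through 1516 to 1667 at CT42, with 11 of 12 arrays near the peak above the median and 1 of 12 away from it. The fold was 1.15 (1.11 to 1.20), peaking at CT21.89 (SE 0.52 h, adjusted p = 1.25e-05). The lid subunit Psmd6 peaked at CT21.25 (fold 1.15, 1.10 to 1.19), and the lid subunits Psmd12 and Psmd7 at CT18.86 and CT18.51. Psmd5, a chaperone that holds the base during assembly, peaked at CT18.34 (fold 1.14, 1.08 to 1.19). The base ATPases Psmc3, Psmc4, Psmc5 and Psmc6 peaked within CT19.59 to CT21.38 with folds of 1.08 to 1.11, and the scaffolds Psmd1 and Psmd2 at CT20.32 and CT20.75.

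The rhythmic core of kidney was divided. The alpha subunits Psma1, Psma3 and Psma6, which build the gate ring, peaked at CT23.14, CT23.64 and CT20.43, and Psmb7, the trypsin-like catalytic subunit, at CT22.97. Psmb6, the caspase-like catalytic subunit, peaked at CT12.33, and the structural beta subunits Psmb4 and Psmb3 at CT13.10 and CT14.09. The call of Psmb7 was lost in 4 of 8 alternative settings and that of Psmb3 in 5 of 8. Psma1 ran from 1207 at CT62 through 1321 to 1506 at CT24 (fold 1.14, 1.09 to 1.19, adjusted p = 0.000144). Psmb4, in contrast, ran from 1917 at CT48 through 2066 to 2369 at CT40 (fold 1.15, 1.09 to 1.22, adjusted p = 0.000889). Near their separate peaks, 11 of 12 arrays of Psma1 and 9 of 12 of Psmb4 lay above the median. The immunoproteasome subunit Psmb9 peaked at CT10.17. Together 16 of the 20 rhythmic kidney members peaked between CT18 and CT24 and the 4 others between CT10.17 and CT14.09. In kidney, 6 of 6 adipocyte markers were rhythmic (mean 6.86 at CT50 to 8.29 at CT60), as were 3 of 8 lymphocyte markers (5.42 at CT42 to 5.69 at CT58) and 3 of 6 smooth muscle markers (7.91 at CT38 to 8.17 at CT40). With the adipocyte mean as a covariate 22 members were called, 18 of them among the 20, and with the lymphocyte mean 11 were, among them Psmd11 (adjusted p = 6.71e-07), Psmd14 and Psma1. What share of the waves such RNA carries was not tested.

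In liver the cap peaked around subjective dawn. Of 20 rhythmic members, 10 peaked between CT0 and CT6 (20.5% of all rhythmic liver genes), 5 between CT18 and CT24 (47.3%), 5 between CT6 and CT12 (18.7%) and 0 between CT12 and CT18 (13.5%). The cap supplied 12 of the 15 peaks between CT18 and CT6 and the core 4 of the 5 between CT6 and CT12. Psmd11 ran from 1639 at CT34 through a median of 2019 to 2235 at CT26. Again all 12 arrays near the peak exceeded the median and 0 of 12 away from it did. The fold was 1.33 (1.26 to 1.40) with a peak at CT0.89 (SE 0.359 h, adjusted p = 5.87e-08). Psmd14 ran from 2048 at CT60 through 2364 to 2573 at CT24 (fold 1.18, 1.12 to 1.24), with a peak at CT23.06 (SE 0.547 h, adjusted p = 3.08e-05).

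Other lid and base genes of liver clustered near these. The lid subunit Psmd3 peaked at CT2.58 with a fold of 1.18 (1.08 to 1.28) and Psmd7, the lid partner of Psmd14, at CT23.52 with a fold of 1.13. The ubiquitin receptor Psmd4 peaked at CT1.02 (fold 1.14, 1.06 to 1.23), the scaffolds Psmd1 and Psmd2 at CT0.86 and CT0.47, and the ATPases Psmc1, Psmc2 and Psmc6 at CT2.49, CT23.68 and CT2.71. The ATPase Psmc3 was the 1 cap gene of liver with a peak between CT6 and CT12, at CT9.05 (fold 1.15, 1.08 to 1.23).

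In the liver core, Psma3 (gate ring) had the lowest adjusted p. It ran from 2842 at CT18 through 3269 to 3512 at CT36, and 11 of 12 arrays near its peak lay above the median. Its fold was 1.16 (1.11 to 1.21) with a peak at CT8.83 (SE 0.584 h, adjusted p = 7.35e-05). Psma1 ran from 2079 at CT18 through 2226 to 2407 at CT26 (fold 1.12, 1.08 to 1.17) and peaked earlier, at CT3.52 (SE 0.619 h, adjusted p = 0.000153). Psma4 peaked at CT7.97, Psmb7 at CT10.81, Psma5 at CT2.54 and Psmb2, a structural beta subunit, at CT21.66. The array at CT34 was the lowest for 11 of the 20 rhythmic members and for 36.4% of all rhythmic liver genes, and its median correlation to the other liver arrays was 0.9794 against a typical 0.9955. Without it 20 members were called, and all were among the 20. The macrophage mean, with 3 of 8 markers rhythmic in liver, was also lowest at CT34 (8.54, against 9.1 at CT60). With the macrophage mean as covariate 21 liver members were called, and Psmd5 missed (adjusted p = 0.0628).

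**Figure D2:**
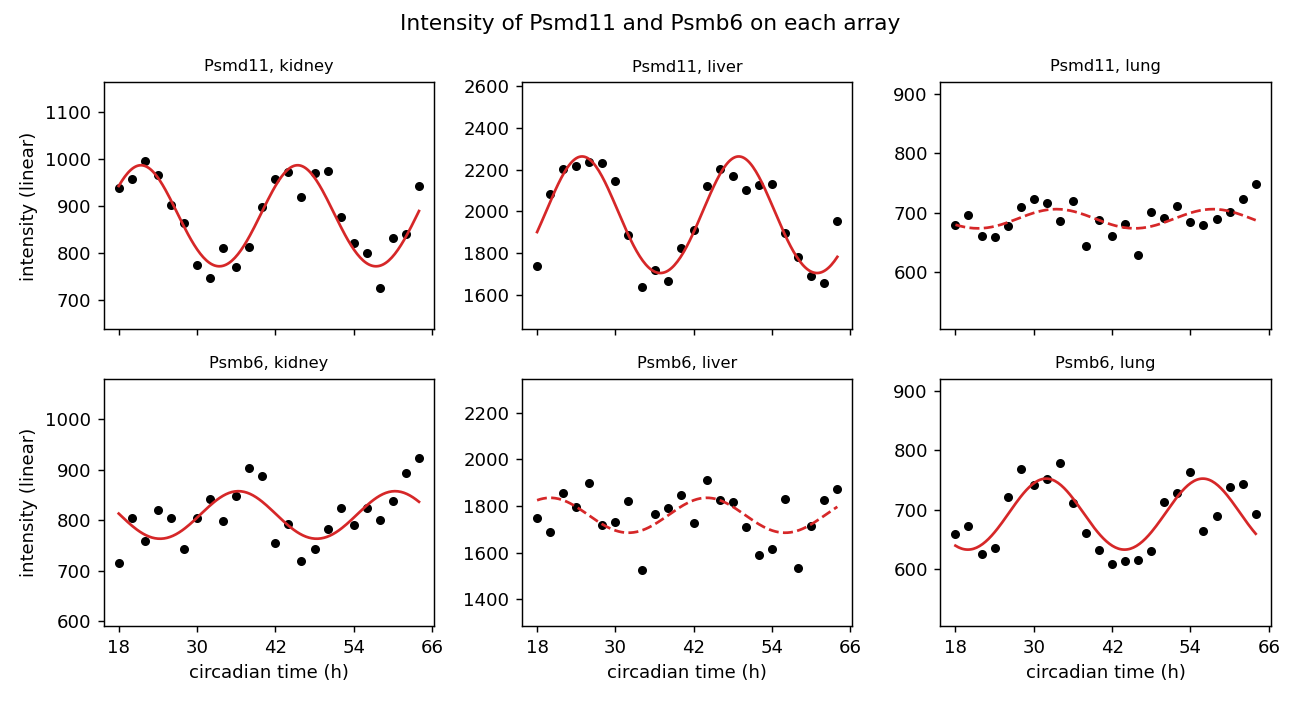
Intensity on a linear scale (vertical axis, 24 arrays per panel) against circadian time in hours for Psmd11 (top) and Psmb6 (bottom) in kidney, liver and lung, with the fitted 24 h wave as a solid line where it was called and dashed where it was not. Psmd11 swings in kidney and liver with peaks at CT21.41 and CT0.89 and is nearly flat in lung, while Psmb6 peaks at CT12.33 in kidney and CT7.9 in lung.

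In lung every rhythmic member peaked in the subjective day. All 15 peaks, 9 of the core and 6 of the cap, fell between CT6 and CT12, where 36.2% of all rhythmic lung genes peaked. Psmb8, the immunoproteasome counterpart of the chymotrypsin-like subunit, had the largest wave. It ran from 204 at CT46 through 240.1 to 319.9 at CT28, and 11 of 12 arrays near its peak lay above the median against 1 of 12 away from it. The fold was 1.31 (1.20 to 1.44) with a peak at CT6.96 (SE 0.63 h, adjusted p = 0.000239).

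Psmb6 had the lowest adjusted p of the constitutive lung core. It ran from 608.9 at CT42 through 691.3 to 778.5 at CT34 (fold 1.19, 1.12 to 1.26), peaking at CT7.9 (SE 0.647 h, adjusted p = 0.000325). Its 3 lowest arrays followed each other at CT42, CT44 and CT46. In the cap, Psmd4 ran from 323.8 at CT46 through 369.7 to 416.5 at CT32 (fold 1.17, 1.10 to 1.24, peak CT7.15, adjusted p = 0.001). The ATPase Psmc3 ran from 369.1 at CT46 through 414.9 to 438.1 at CT32 (fold 1.10, 1.06 to 1.15, peak CT10.74, adjusted p = 0.00164). Each had 10 of 12 arrays near the peak above the median. Psma7 (gate ring) reached 1.21-fold with a peak at CT6.5, and Psmd8, Psmd3, Psmd13 and Psmc5 of the cap reached 1.10 to 1.14-fold.

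Psmd11 and Psmd14, the strongest cap genes of kidney and liver, had lung folds of 1.05 (adjusted p = 0.32) and 1.03 (adjusted p = 0.749) and were not called. The lung peaks differed by more than 4 h between day 1 and day 2 for 3 of 15 members, Psma5, Psmb1 and Psmb7, where 95.9% of all rhythmic lung genes kept within 4 h. In kidney and liver all 20 of 20 kept within 4 h. The lung array at CT28 was the highest for 6 of 15 members (15.3% of rhythmic lung genes) and that at CT46 the lowest for 7 (15%). The same CT28 array had the highest lymphocyte mean (7.58, against 6.93 at CT38, with 3 of 8 markers rhythmic) and the highest heart muscle mean (9.66, against 8.58 at CT58, with 4 of 8 rhythmic). In lung, 4 of 6 smooth muscle markers and 3 of 8 macrophage markers were rhythmic too. With the lymphocyte mean as covariate 16 lung members were called and with the macrophage mean 15, while the part of smooth muscle was not tested. With a straight line over time as covariate 10 lung members were called, all among the 15.

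**Figure D3:**
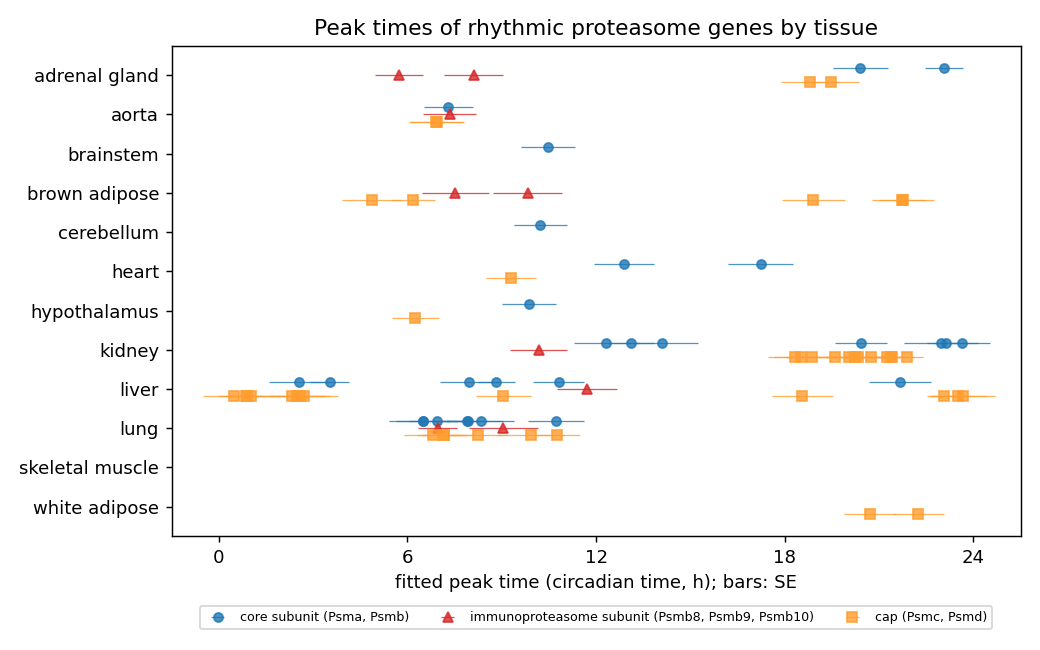
Fitted peak time in circadian hours (horizontal axis, bars show the SE) of every called gene in each tissue, with circles for core, triangles for immunoproteasome and squares for cap genes. Kidney cap genes gather between CT18.34 and CT21.89, liver cap genes spread around CT0, and all 15 lung genes lie between CT6.49 and CT10.74.

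The wave itself differed between tissues for most members. Across 12 tissues 30 of 39 passed a test of the difference (Johansen's form of the Welch test on limma's coefficients), against 47.7% of all genes. The share among genes above the tissue median intensity is not given here, for this test or for pairs of organs. Psmd11 had the lowest adjusted p (1.61e-19), followed by Psmd14 (4.25e-09), Psmb8 (6.45e-06) and Psmd5 (7.8e-06). For Psmb10, which was called in 3 tissues, the difference did not pass (adjusted p = 0.171), nor did it for Psmb1, Psmd2 and Psmd12, called in 2 each. With the shared time points as a block, the difference passed for Psmd2 (adjusted p = 0.0276, against 0.0565 without the block). These are tests with no replicate pools. The labels used link samples of different tissues only through their time points. Whether the tissues came from the same mice was not established, and the test treats tissues as independent.

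Pairs of the 3 organs with most calls were then compared by the same test. Its adjusted p takes size and timing of the wave together and is no test of the gap between peaks alone. The SE given beside a gap is that of the gap. Kidney and liver differed for 18 members (19.4% of all genes), and of the 12 members rhythmic in both, 9 differed. The percentages given for pairs of organs are over all genes, rhythmic or not. The share among all genes rhythmic in both organs of a pair is not given here. Whether members rhythmic in both differed more often than other such genes therefore cannot be told. The peak in kidney minus that in liver was -3.48 h for Psmd11 (SE 0.501 h, adjusted p = 8.54e-06), -7.46 h for Psmd12 (SE 1.36 h, adjusted p = 0.00271) and -4.55 h for Psmd1 (SE 1.09 h, adjusted p = 0.013), earlier in kidney each time. For Psmd5 it was -0.21 h (SE 1.19 h, adjusted p = 0.921) and for Psmd14 -1.18 h (SE 0.755 h, adjusted p = 0.489), and neither passed. Peaks lay farther apart for the core genes Psma3 and Psmb7 and the ATPase Psmc3. Psma3 peaked at CT23.64 in kidney and CT8.83 in liver (adjusted p = 6.09e-06), Psmb7 at CT22.97 and CT10.81 (adjusted p = 0.000183), and Psmc3 at CT19.59 and CT9.05 (adjusted p = 0.000242).

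Kidney and lung differed for 17 members (18.7% of all genes), and 5 of the 6 rhythmic in both did so. Psmc5 peaked 11.79 h apart (CT20.03 in kidney, CT8.25 in lung, SE 1.37 h, adjusted p = 0.000233) and Psmb6 4.43 h apart (SE 1.22 h, adjusted p = 0.0155). Psmb3 was the exception, with peaks at CT14.09 and CT10.72 (adjusted p = 0.195). Liver and lung differed for 20 members (26.8% of all genes) but for 3 of the 7 rhythmic in both, Psmd4 (CT1.02 against CT7.15, adjusted p = 0.0027), Psmd3 (CT2.58 against CT7.17, adjusted p = 0.0349) and Psma5 (CT2.54 against CT6.94, adjusted p = 0.0431). Psma3, Psmb7, Psmb10 and Psmc3 did not pass between these organs, with the liver peak minus the lung peak between -1.69 h and 2.66 h.

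The immunoproteasome subunits were called in 9 of 36 pairs of gene and tissue, where the whole family was called in 81 of 468, and 3 of the 9 were among the 4 largest called waves of the family. Psmb8 (chromosome 17 from 34198195 to 34201454) was called in adrenal gland, aorta and lung with peaks at CT8.11, CT7.34 and CT6.96. In aorta it ran from 82.9 at CT44 through 108.6 to 147.8 at CT56, with 8 of 12 arrays near the peak above the median and 4 of 12 away, so the groups overlapped. Its aorta fold of 1.35 (1.18 to 1.55, adjusted p = 0.0177) was the largest of any member. Psmb8 was dim there, with a mean log2 intensity of 6.78, under the typical array median of 6.891. The same held in adrenal gland, with 6.63 under 6.972. In adrenal gland it ran from 78.2 at CT24 through 97.85 to 124.6 at CT56 (fold 1.21, 1.10 to 1.34, adjusted p = 0.0373), and this call was lost under 6 of 7 other ways of fitting it.

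Psmb9, the counterpart of Psmb6, lies near Psmb8 on chromosome 17 (34182030 to 34187330). It was called in adrenal gland (271.8 at the median, from 239.8 at CT60 to 339.4 at CT54), brown adipose (395.5, from 339.5 at CT22 to 502.7 at CT60) and kidney (210.3, from 189.9 at CT48 to 235.9 at CT60). The folds were 1.20 (1.11 to 1.30), 1.18 (1.08 to 1.30) and 1.13 (1.06 to 1.19), and the peaks fell at CT5.73, CT7.52 and CT10.17. Most arrays near the peak were above the median in each of these organs (9, 10 and 9 of 12), and 3, 2 and 3 of 12 were so away from it. Psmb10 (chromosome 8 from 105935728 to 105938392), the counterpart of Psmb7, was called in brown adipose, liver and lung. In liver it ran from 443.2 at CT50 through 545.2 to 886.3 at CT36. Its next highest array, 795.3 at CT60, came 24 h later, and 9 of 12 arrays near the peak lay above the median. The wave had a fold of 1.33 (1.15 to 1.54), a peak at CT11.71 (SE 0.966 h) and an adjusted p of 0.0124. Its brown adipose fold was 1.23 (peak CT9.82) and its lung fold 1.13 (peak CT9.05), and in brown adipose the peaks of the separate days were 4.63 h apart and the call was lost in 4 of 8 alternative settings.

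All 9 immunoproteasome calls thus peaked between CT5.73 and CT11.71. The window from CT6 to CT12 held 18.7% of all rhythmic genes in liver, 21.6% in adrenal gland, 28.8% in kidney, 32.2% in brown adipose, 36.2% in lung and 39.1% in aorta. Tap1, the peptide transporter that works downstream of the immunoproteasome and whose gene lies between Psmb9 and Psmb8, was rhythmic in 6 tissues, with peaks from CT5.72 to CT6.41 in adrenal gland, aorta, brown adipose, kidney and lung and at CT23.69 in liver. In lung Tap1 reached 1.36-fold (1.25 to 1.49, adjusted p = 2.31e-05). Tap2, its partner in the transporter, was called in brown adipose, liver and lung, and the interferon-induced regulator Irf1 in brown adipose and lung. Of 7 measured partners of antigen processing, 4 were rhythmic in lung, 3 in brown adipose, 2 each in kidney and liver, and 1 each in adrenal gland and aorta. Of all genes 20.9% passed in lung, 16.5% in brown adipose, 25.8% in kidney, 26.8% in liver, 5.89% in adrenal gland and 5.09% in aorta. With the lymphocyte marker mean as covariate, Psmb8 kept its call in aorta (adjusted p = 0.0218) and lung (0.0013), while Psmb10 in liver (0.0891), both brown adipose calls (0.0514 and 0.0535) and Psmb8 in adrenal gland (0.0513) missed. With the macrophage mean, Psmb10 in liver kept its call (2e-04) and Psmb10 in lung (0.0511) and Psmb9 in adrenal gland (0.0991) missed. Not all 9 calls are listed here for either covariate, so how many hold under each is not given.

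On the deposited scale, levels of the 3 immunoproteasome genes were highest in lung and liver. The place of liver may depend on the scaling. Relative to each gene's mean over tissues, the family median in liver was 0.84 log2 units as deposited and 0.26 after quantile normalization of all arrays. The order of these 3 genes under that normalization is not given here. Psmb8 had a mean log2 intensity of 7.95 (SD 0.182 over 24 arrays) in lung and 7.76 (SD 0.134) in liver, then 7.3 in white adipose and 7.17 in brown adipose. It was lowest in brainstem (5.42), cerebellum (5.26) and hypothalamus (5.12, SD 0.0591). Lung and liver differed by 0.19, just over the larger SD, while skeletal muscle, aorta, heart and adrenal gland followed each other within their spread. Psmb9 was ordered alike, from 8.97 in lung to 7.31 in hypothalamus, with lung and liver within their spread. Psmb10 was 9.17 in lung and 9.14 in liver, again within their spread, and lowest in kidney (7.48) and cerebellum (7.5), while hypothalamus ranked 4 of 12 at 8.6. The lymphocyte marker mean was also highest in lung, at 6.93 to 7.58, against 5.09 to 5.28 in hypothalamus, and its part in these levels was not tested.

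**Figure D4:**
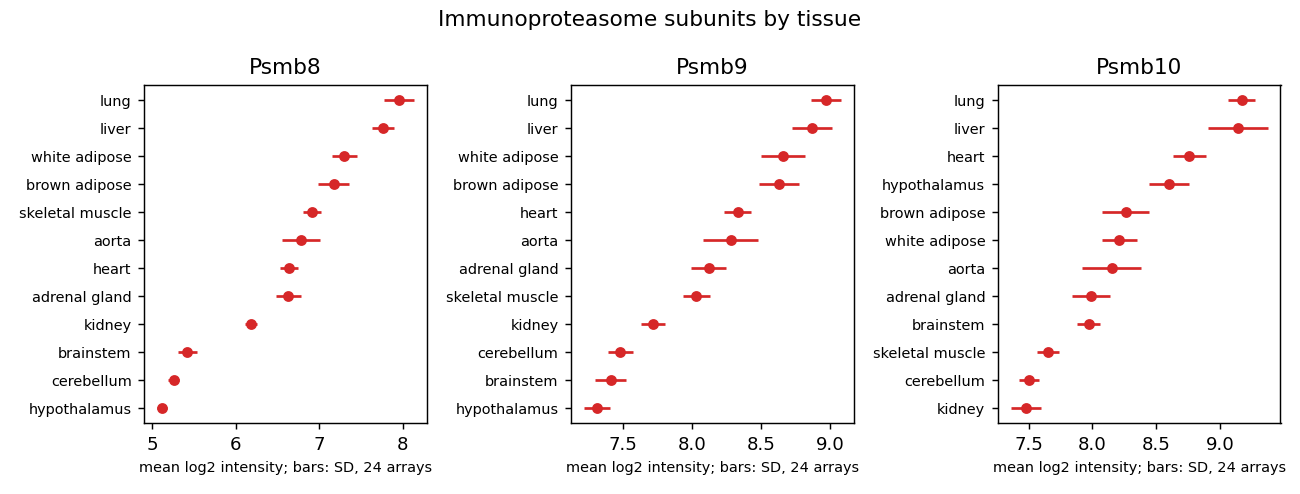
Mean log2 intensity of Psmb8, Psmb9 and Psmb10 (horizontal axes, each panel with its own scale) in 12 tissues ordered by level, with bars for the SD over 24 arrays. On the deposited scale lung and liver head all 3 panels, and hypothalamus is last for Psmb8 and Psmb9 but ranks 4 for Psmb10.

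Among the other tissues, brown adipose had 5 rhythmic cap members. The lid subunit Psmd6 ran there from 661.6 at CT38 through 836.7 to 1094 at CT44 (fold 1.25, 1.11 to 1.40, peak CT21.76, adjusted p = 0.0206), with 9 of 12 arrays near the peak above the median and 3 of 12 away from it. Its highest array was the one with the most skeletal muscle RNA, and with the muscle marker mean as covariate its fold was 1.11 (adjusted p = 0.41). Of the 7 brown adipose calls, those of Psmd4 and Psmd11 held under that covariate (adjusted p = 0.00142 and 0.0073). Psmd4 peaked at CT6.18 (fold 1.23, 1.14 to 1.33) and Psmd11 at CT4.86 (fold 1.19, 1.09 to 1.30). In brown adipose 6 of 6 smooth muscle, 3 of 8 macrophage and 3 of 6 adipocyte markers were rhythmic too. With the macrophage mean as covariate 6 members were called, and Psmd6 (adjusted p = 0.257), Psmd5 (0.0996) and Psmb10 (0.0948) missed, while the part of smooth muscle and adipocytes was not tested. Psmd6 was also rhythmic in adrenal gland (fold 1.19, 1.09 to 1.29, CT19.48), and in white adipose it ran from 685.9 at CT58 through 821 to 975.2 at CT46 (fold 1.18, 1.10 to 1.28, CT20.72, adjusted p = 0.0181). Its 4 peaks in adrenal gland, brown adipose, kidney and white adipose thus lay between CT19.48 and CT21.76. The array at CT58 stood apart in white adipose (median correlation 0.9632), and 2 members were called there without such arrays.

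In aorta all 4 rhythmic members, Psma7, Psmb8, Psmd4 and Psmd11, peaked from CT6.91 to CT7.34, where the window from CT6 to CT12 held 39.1% of rhythmic aorta genes. Psmd4 reached 1.29-fold (1.14 to 1.45) and Psma7 1.28-fold (1.15 to 1.42). The array at CT46 was the lowest for 3 of the 4. Markers of neighbouring tissue were high in aorta. Adipocyte markers had a mean log2 intensity of 11.45 (2 of 6 rhythmic). Brown adipocyte markers had 10.36 (2 of 6 rhythmic), against 10.71 in brown adipose. Heart muscle markers ran from 8.61 at CT62 to 11.26 at CT28, with 0 of 8 rhythmic. What part of the aorta waves such RNA carries was not tested. In adrenal gland Psmb5, the chymotrypsin-like catalytic subunit, varied 1.18-fold (1.12 to 1.24) with a peak at CT23.07 (adjusted p = 0.00071), and it stayed called with the hepatocyte mean as covariate (adjusted p = 0.00101). Psma6 and Psmd1 peaked there at CT20.41 and CT18.8. Their adrenal calls, and that of Psmd6, were each lost in 2 of 8 alternative settings. With the hepatocyte mean as covariate 3 of the 6 adrenal calls remained.

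Heart and the brain regions had few calls. In heart the ATPase Psmc6 ran from 1107 at CT44 through 1261 to 1422 at CT58 (fold 1.14, 1.08 to 1.21, peak CT9.29, adjusted p = 0.00517), and Psmb1 and Psmb5 peaked at CT12.89 and CT17.23, though the call of Psmb5 was lost in 5 of 8 alternative settings. In hypothalamus the lid subunit Psmd13 ran from 525.7 at CT18 through 647.7 to 737.8 at CT28 (fold 1.15, 1.09 to 1.22, peak CT6.25, adjusted p = 0.0165). The array at CT18 stood apart from the other hypothalamus arrays (0.9915), and without it and the array at CT36 Psmd13 had a fold of 1.12 (adjusted p = 0.0114) and 5 members were called.

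Psmb3, a structural subunit of the beta ring, was called in more tissues than any other member, though with shallow waves. It was rhythmic in brainstem, cerebellum, hypothalamus, kidney and lung, with folds of 1.06 to 1.11 and peaks from CT9.87 to CT14.09. Its call was lost in 5 of 8 alternative settings in hypothalamus and in kidney and in 4 of 7 in brainstem. In brainstem it ran from 2274 at CT22 through 2439 to 2552 at CT60 (fold 1.07, 1.04 to 1.10, adjusted p = 0.0175). In cerebellum it ran from 2032 at CT54 through 2157 to 2293 at CT60 (fold 1.07, 1.04 to 1.10, adjusted p = 0.0142). In both regions the array at CT60 was the highest, and 9 and 10 of 12 arrays near the peak lay above the median.

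These values depend on the probe set. The rule takes the brightest one, and for Psma3, Psma5, Psmb3 and Psmd2 that probe set is numbered among genes of another chromosome than the gene's own, as 17 of the 20 nearest numbers for Psmb3 belong to chromosome 16 and the gene lies on chromosome 11. Copies of these genes elsewhere in the genome and the genes themselves cannot be told apart by such a probe set. The Psmb3 probe set numbered on chromosome 11 was called in cerebellum (fold 1.10, peak CT10.54, adjusted p = 0.0218) and lung (fold 1.09, peak CT12.27, adjusted p = 0.0183) and missed in brainstem (0.322), hypothalamus (0.114) and kidney (0.079). For Psma3 all 3 probe sets were called in kidney, liver and lung, with kidney peaks from CT23.54 to CT23.73 and liver peaks from CT8.57 to CT9.14. Psmd2 was called in kidney and liver by both of its probe sets, and Psma5 lost its liver call (0.0795) with the probe set numbered on chromosome 3 and gained one in brown adipose.

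Waves of 12 h were rare. By limma's moderated F test 4 members passed in skeletal muscle (6.99% of all genes) and 1 in brown adipose (4.83%), and 0 passed in the other 10 tissues, where 0 to 7 members had an unadjusted p under 0.05. There the share of all genes was 0.326% in liver, 0.0602% in lung, 0.00502% each in brainstem, heart and kidney, and 0% in the others. The 4 were Psmb2 (fold 1.27), Psmb4, Psmc2 and Psmd13, and Psmd6 was the member in brown adipose (fold 1.21, adjusted p = 0.019). Without the skeletal muscle arrays that stood apart (CT22, CT24, CT42 and CT46, in which lymphocyte markers reached 6.74 to 7.09 against a median of 5.55) 0 members passed there.

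Levels of the family as a whole were highest in liver. Relative to each gene's mean over the 12 tissues, the median member was 0.84 log2 units higher in liver, where the median of all genes was 0.25 higher, and 27 of 39 members had their highest level there (28.1% of all genes did). Skeletal muscle followed with a member median of 0.36 and heart with 0.3. Aorta was lowest, with a median of -0.42 and the lowest level of 19 members (7.63% of all genes). After quantile normalization of all 288 arrays the liver median was 0.26, that of skeletal muscle 0.38 and that of heart 0.21, 3 members were highest in liver and 20 in skeletal muscle, so the rank of liver over muscle turned with the scaling. Aorta was not lowest under that scaling, with -0.15 against -0.3 in lung and -0.29 in cerebellum. Liver, heart and skeletal muscle were above the mean under both scalings. Core and cap differed little in liver (0.88 and 0.82), while in skeletal muscle the cap stood at 0.61 and the core at 0.32. The testis subunit Psma8 had mean log2 intensities of 4.75 to 5.54 and the thymus subunit Psmb11 of 5.44 to 6.34 over the tissues.

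**Figure D5:**
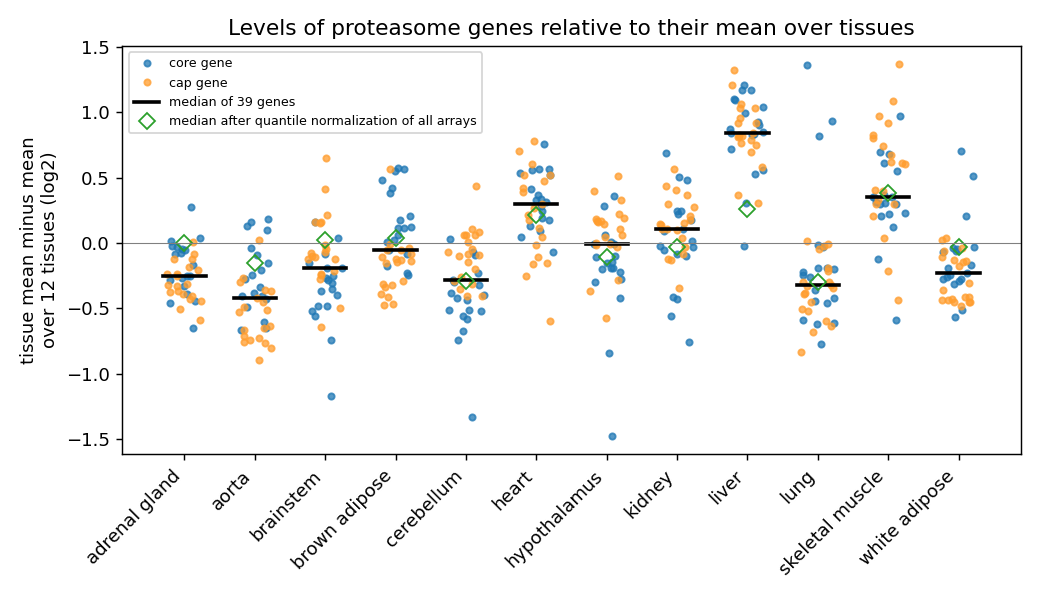
Difference of each gene's mean log2 intensity in a tissue from its mean over 12 tissues (vertical axis, 1 point per gene, core and cap coloured), with bars at the median of the 39 genes and diamonds at the median after quantile normalization of all arrays. The liver bar stands at 0.84 and its diamond at 0.26, while skeletal muscle stands at 0.36 and 0.38.

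Genes that build, regulate and supply the proteasome were counted from lists. Of 5 measured assembly chaperones of the core, 4 were rhythmic in liver, 1 in lung and 0 elsewhere. Pomp, which completes the beta ring, varied 1.21-fold in liver (1.13 to 1.30, peak CT20.74, adjusted p = 0.000469), and the alpha ring chaperones Psmg1 and Psmg2 peaked there at CT17.82 and CT0.28. Among the activators, Psme1, a subunit of the interferon-induced ring that opens the core, was rhythmic in 5 tissues, peaking from CT6.17 to CT8.64 in adrenal gland, brown adipose, cerebellum and lung and at CT19.61 in liver. Psme4, another activator, was called in brown adipose, heart and kidney, and Psme3 in kidney and liver. Counts of the 5 activators and inhibitors reached 3 in liver and 2 in kidney and brown adipose. Of 4 other cap proteins, the deubiquitinase Usp14 was called in kidney (fold 1.23, 1.15 to 1.31, peak CT20.66, adjusted p = 5.55e-05), Uchl5 in liver and Sem1 in lung.

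The ubiquitin shuttle Ubqln1, which carries substrates to the cap, was called in 4 tissues, at CT19.73 in kidney (fold 1.18, 1.14 to 1.23), CT22.25 in liver (fold 1.25, 1.18 to 1.32), CT21.14 in brown adipose and CT18.56 in lung. Of 4 measured shuttle and ubiquitin genes, 3 passed in liver, 2 each in kidney and brown adipose and 1 in lung. Nfe2l1, the factor that raises proteasome genes when the proteasome is inhibited, was called in liver alone of 12 tissues (fold 1.13, 1.06 to 1.20, peak CT23.34, adjusted p = 0.00875), which is no test of a difference between tissues. Of 9 measured genes of its activation and partners, 6 passed in liver, 5 in kidney and 4 in lung. Its relative Nfe2l2, the regulator of the antioxidant response, was called in 6 tissues, at CT14.44 to CT15.84 in aorta, brainstem, brown adipose and lung, CT19.75 in kidney and CT10.18 in skeletal muscle. Of 10 measured heat shock genes, 8 passed in kidney, 7 in liver, 6 in lung and 2 to 5 in each other tissue, while Dnajb1 and Hspa1a passed in 0 tissues. For these partner lists too, the share of all genes was 25.8% in kidney, 26.8% in liver, 20.9% in lung and 16.5% in brown adipose. Hsph1, a chaperone that helps refold proteins, reached 2.59-fold (1.85 to 3.63) in liver with a peak at CT16.31.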

How the data were processed

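Intensity values on a linear scale, 1 per probe set and array, were used as the authors deposited them. Per the submitters' processing notes, GCRMA and Affymetrix Expression Console made them; versions, and whether tissues were normalized apart, are not given in the sources used here. Array medians lay between 95.2 and 106.6, so levels between tissues depend on that step. Values were taken to log2 with no pseudocount and no filter on low values. Of 35556 probe sets 21789 had 1 symbol, which gave 19938 genes, each represented by its brightest probe set; symbols are from an older platform annotation. With limma 3.58.1 (R 4.3.3), cosine and sine terms of 24 h were fitted to the 24 arrays of a tissue, and p-values were adjusted by Benjamini and Hochberg. Precision is limited by the number of arrays. For a difference of the wave between tissues, a fit with 1 spread for all tissues had been planned. It called too many genes in simulated data, so Johansen's form of the Welch test on limma's moderated variances was used, with the planned fit as an alternative. Chromosome positions and promoters are from RefSeq, build GRCm38.p6. Members and lists were chosen with earlier results of these data known. Full values are given for the 2 core and 2 cap members with the lowest adjusted p in kidney, liver and lung, the largest fold in each other tissue, the immunoproteasome subunits and up to 4 members called in most tissues; up to 3 genes per partner list are named. Other members were named after their values were seen. Alternatives covered normalization, ranks, trends, harmonics, apart arrays, probe sets, marker covariates and single arrays left out.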

Additional observations from a re-analysis of the deposited data

Results flagged for a closer look

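The 24 h wave differed between the 12 tissues for 30 of the 39 members, by the test of the difference on limma's fits, and these are listed for a closer look with their adjusted p. In the alpha ring they were Psma3 (1.69e-05), Psma1 (3.56e-05), Psma5 (0.00564), Psma6 (0.0126), Psma7 (0.0234) and Psma4 (0.0342). In the beta ring they were Psmb5 (4.74e-05), Psmb3 (5.06e-05), Psmb6 (0.000227), Psmb7 (0.000301), Psmb2 (0.000705) and Psmb4 (0.00253), and in the immunoproteasome Psmb8 (6.45e-06) and Psmb9 (0.0165). Among the ATPases they were Psmc6 (2.17e-05), Psmc3 (4.78e-05), Psmc5 (0.00186), Psmc2 (0.00381), Psmc1 (0.00882) and Psmc4 (0.0349). Of the scaffolds Psmd1 (0.00425) passed, as did the ubiquitin receptor Psmd4 (2.7e-05), and of the assembly chaperones Psmd5 (7.8e-06). The lid contributed Psmd11 (1.61e-19), Psmd14 (4.25e-09), Psmd8 (0.000947), Psmd6 (0.00257), Psmd7 (0.0111), Psmd13 (0.0113) and Psmd3 (0.0222). The test compares size and timing together, and of all genes 47.7% passed it.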

How the results depend on the processing

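No call reversed its timing in the 7 or 8 planned settings in which each call was refitted. Of the 81 calls, 50 held in every planned setting, 24 were lost in 1 to 2 settings and 7 in 3 or more. Counts that moved by over 1.5 times were these, and the cause was not tested. Ranks gave 2 calls in aorta, 0 in brainstem, 1 in hypothalamus and 1 in white adipose. Quantile normalization within the tissue gave 3 in brainstem and 1 in skeletal muscle. Under the same setting the kidney count moved by less than 1.5 times, from 20 to 14, with 13 of the 14 among the 20. The share of all genes called in kidney was 27% there, against 25.8% in the main fit. A straight line as covariate gave 4 in brown adipose and 1 in hypothalamus. Harmonics of 12 h and 8 h gave 1 in hypothalamus. The marker mean of the tissue's most variable foreign cell type gave 3 in adrenal gland, 2 in brown adipose, 0 in brainstem and 1 in hypothalamus. The mean of all probe sets gave 0 in brainstem and 1 in hypothalamus, as did the probe set of the member's own chromosome (0 and 1), which was chosen after seeing the data. The lymphocyte mean, also added after seeing the data, gave 11 in kidney. Without arrays that stand apart hypothalamus had 5 calls, and 12 h waves numbered 2 in brown adipose and 0 in skeletal muscle. Quantile normalization of all arrays left 3 members highest in liver. Leaving out 1 array at a time (leave-one-out) gave 18 to 21 calls in kidney, 17 to 22 in liver and 11 to 16 in lung, lowest without CT22, CT38 and CT22. With the time points as a replicate block, 31 members differed between tissues (Psmd2 was added); with 1 spread for all tissues 31 did. Psma8 and Psmb11 had the lowest mean intensities of the members in most tissues, where a missing call does not show a constant level.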
